A study of Mus musculus with 12 samples.

Results

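The 33 genes described here belong to the unfolded protein response (UPR) and the integrated stress response (ISR), and they were taken by gene symbol from the 23282 lines of a count table of 12 mouse tumors. All 33 symbols were found, and all 33 were among the 13464 genes that had enough counts to be tested. By role, 5 were stress output genes, 8 amino acid and one-carbon genes, 13 endoplasmic reticulum (ER) chaperone and folding genes, 3 genes of ER-associated degradation, and 4 sensors and transcription factors.

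The tumors grew from MC38 cells, a mouse colon carcinoma line, injected subcutaneously into the flank of female wild-type C57BL/6 mice, and RNA was taken on day 19. The labels give the age of the mice as 6 weeks, which by the study's methods was their age at purchase, before 1 week of acclimation. The Con mice received saline with DMSO and Tween 80 as vehicle and the isotype antibody IgG2a. The SFIH mice received SFIH, the sesquiterpene lactone-rich fraction of the root of Inula helenium, at 50 mg/kg into the peritoneum each day. The PD mice received 200 μg of anti-PD-1 antibody 2 times a week, and the Comb mice received both agents. Each group had 3 tumors, numbered as replicates 1 to 3. The study lists isotype antibody for the SFIH mice as well, which the sample labels do not state. Only 1 tumor line and 1 site of growth were used. RNA came from whole tumor tissue, so fewer tumor cells and less RNA per tumor cell cannot be told apart in any value below. The sources do not say which mouse each RNA sample came from, so the p-values measure the spread between these samples.

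In the UPR, unfolded protein in the ER is sensed by Atf6, Ern1 (IRE1α) and Eif2ak3 (PERK). Atf6 is cut to release a transcription factor, Ern1 splices the Xbp1 message so that it encodes one, and both factors are known to switch on ER chaperones and degradation genes. Eif2ak3 is one of the kinases of the ISR, which phosphorylate eIF2α, lower general translation and favor translation of Atf4, a factor that drives genes for amino acid synthesis and uptake and, with Ddit3 (CHOP), genes linked to cell death. Tumors are known to engage both responses when protein load is high or amino acids, glucose or oxygen are scarce.

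Total counts ran from 7870741 to 12261032 per tumor, with a median of 9932321. The tumor Comb replicate 3 stood apart from the others. Its summed macrophage markers were 14878 CPM (counts scaled to the library total), against 542 to 4002 in the other 11 tumors, with 8 of 8 listed genes found. Its fibroblast markers summed to 22785 CPM (7 of 7 genes, 1016 to 11718 elsewhere) and its skeletal muscle markers to 6168 CPM (8 of 8 genes, 11.5 to 610 elsewhere). No gene of these lists was at 0 in that tumor. Its neutrophil markers summed to 929 CPM (5 of 6 genes found, at most 111 elsewhere), its adipocyte markers to 1259 CPM (6 of 6, at most 440), its skin markers to 404 CPM (5 of 6, at most 25.5) and its T cell markers to 321 CPM (7 of 8, at most 116). The label calls the samples tumor cells, but the 6 epithelial and carcinoma markers summed to only 2.50 to 22.6 CPM in the other 11 tumors and to 121 CPM in Comb replicate 3. Epcam and Cldn7, which define epithelium, were both at 0 counts in Con replicate 1. Most fold changes of the Comb group are therefore given with and without Comb replicate 3. Counts of genes whose groups do not overlap are given with that tumor only.

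The start regions of 7 ER chaperone genes held a sequence that most of the genome's promoters lack. The ER stress response element (ERSE) is the site through which Atf6 and Xbp1, with the factor NF-Y, are known to act. RefSeq promoter windows of mouse build GRCm38.p6, from 250 bases before to 50 after the transcription start, were found for 29 of the 33 genes (Slc7a5, Hyou1, Manf and Atf6 had none in the table used). The motif, CCAAT, any 9 bases and CCACG, searched on both strands, was in the windows of 7 of these 29 genes (24.1%), against 39 of all 32851 windows (0.119%). All 7 were ER chaperone and folding genes, 7 of the 11 with a window. The genes were picked as members of the response that this site serves, so their excess over all windows is not an independent result. The sites are shown because, among the 29 genes, they were found in chaperone genes alone. Each is written on the strand of its gene, 5′ to 3′, with the fixed letters of the motif in capitals. A site that starts with CGTGG lies on the opposite strand.

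Hspa5: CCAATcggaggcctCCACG
Calr: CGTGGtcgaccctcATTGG
Hsp90b1, distal: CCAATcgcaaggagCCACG
Hsp90b1, proximal: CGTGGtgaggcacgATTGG
Canx: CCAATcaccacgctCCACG
Pdia6: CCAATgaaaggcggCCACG
Dnajc3: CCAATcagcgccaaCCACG
Creld2: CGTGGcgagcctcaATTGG

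The site of Hspa5 ran from 65 to 47 bases before the start (chr2:34772025-34772043, plus strand) and that of Calr from 162 to 144 bases before it (chr8:84847075-84847093, gene on the minus strand). Hsp90b1, on the minus strand of chromosome 10, carried 2 sites, at chr10:86705638-86705656 and chr10:86705533-86705551. The related element ERSE-II, ATTGG, any 1 base and CCACG, was found only at Herpud1, an ER membrane protein of the degradation machinery, as ATTGGgCCACG from 52 to 42 bases before its start, against 12 of all windows (0.0365%). The UPR element (UPRE), TGACGTGG, was in 0 of the 29 windows (0.676% of all windows), while the core of the C/EBP-ATF response element, a site type bound by Atf4, searched as TGATG, any 1 base and AA, was in 5 of 29 (17.2%, against 3.97% of all windows). These 5 were the stress output genes Atf3, Chac1 and Trib3, the amino acid gene Asns, and Herpud1. With a T fixed after the core it was in 0 of 29 (0.965% of all windows). The ERSE, ERSE-II and, read on the other strand, the UPR element share the letters CCACG. A match is a description of these letters, and its absence says only that they are not in this window.

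The 250 bases before the start are printed for 2 genes whose chaperone products are described below, with the ERSE in capitals. Hspa5 encodes BiP, the main ER chaperone of the Hsp70 family, and Calr encodes calreticulin, a calcium-binding chaperone of glycoproteins. The Hspa5 stretch is chr2:34771840-34772089 on the plus strand and the Calr stretch chr8:84846932-84847181 on the minus strand.

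Hspa5: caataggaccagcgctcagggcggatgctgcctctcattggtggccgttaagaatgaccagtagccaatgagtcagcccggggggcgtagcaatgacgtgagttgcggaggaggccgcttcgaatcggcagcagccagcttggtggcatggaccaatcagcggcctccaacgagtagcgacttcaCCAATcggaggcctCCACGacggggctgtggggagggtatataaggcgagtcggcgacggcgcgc
Calr: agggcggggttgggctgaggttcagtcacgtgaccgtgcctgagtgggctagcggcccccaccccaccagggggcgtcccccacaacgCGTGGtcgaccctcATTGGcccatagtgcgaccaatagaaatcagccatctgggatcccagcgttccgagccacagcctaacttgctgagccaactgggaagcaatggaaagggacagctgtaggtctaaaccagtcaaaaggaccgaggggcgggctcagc

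**Figure D1:**
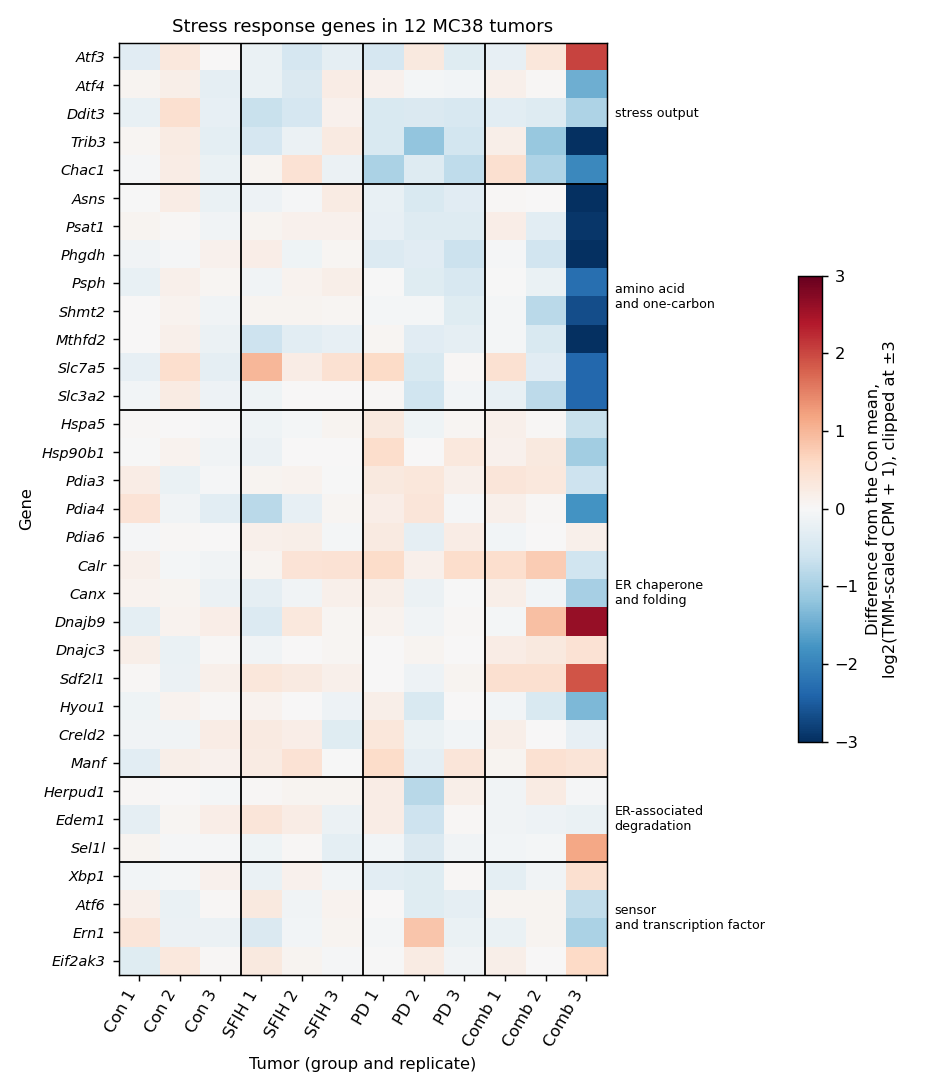
Difference of each of the 33 genes (rows, ordered by role) from the mean of the 3 Con tumors, in log2(TMM-scaled CPM + 1), for each of the 12 tumors (columns). Red is higher and blue lower than Con, with colors clipped at 3 in each direction. Comb replicate 3 is the column that departs most. All 8 amino acid and one-carbon genes were below every Con tumor there, as were 47.9% of all genes tested.

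Levels are given as CPM scaled by TMM factors, and fold changes are log2 values from 1 edgeR fit of all 12 tumors with their standard error (SE). They are compared between tumors for the same gene and never between genes. The p-values of the edgeR quasi-likelihood test were adjusted by Benjamini-Hochberg over all 13464 genes. An adjusted p under 0.05 was reached by 0 of the 33 genes and 0 of all genes (0%) in any of the 6 comparisons. On simulated data this test called 0 of 200 genes changed 2-fold, so the lack of a call does not show that a gene was unchanged. At an unadjusted p under 0.05, 303 genes (2.25%) passed for SFIH against Con, 537 (3.99%) for PD against Con and 3406 (25.3%) for Comb against Con, among which were 0, 0 and 2 of the 33. DESeq2 on the same tumors called 4 genes (0.0297%), 6 genes (0.0446%) and 1998 genes (14.8%), among which were 0, 0 and 2 of the 33. A set of tumors was also compared by overlap: a gene was counted when all 3 tumors of one group lay above or below all 3 of the other.

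The comparison of PD with Con asks what anti-PD-1 antibody alone did to these genes. Of the 5 stress output genes 3 (Ddit3, Trib3 and Chac1), and of the 8 amino acid and one-carbon genes 3 (Asns, Psat1 and Phgdh), were lower in every PD tumor than in any Con tumor. The groups overlapped for Atf4, Atf3 and Psph and for all 13 ER chaperone and folding genes, and no gene passed the adjusted threshold. Of the 33 genes, 7 had all PD tumors below all Con tumors (21.2%, against 9.36% of all genes), and 0 had all PD tumors above (9.42% of all genes). Beside the 6 genes named, the list held Sel1l of ER-associated degradation. On CPM without TMM scaling these 7 genes and Shmt2 were below (8 genes, 24.2%, against 14.8% of all genes). None was above (5.76% of all genes).

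Ddit3, the CHOP factor linked to cell death under lasting stress, was at 148, 241 and 146 CPM in Con replicates 1 to 3 and at 127, 129 and 123 CPM in PD. The 3 PD tumors lay close together and below the lowest Con tumor, and Con replicate 2 was well above the other Con tumors. This gave a log2 fold change of -0.50 (SE 0.27, unadjusted p = 0.0921, adjusted p = 1 by edgeR).

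Trib3, a pseudokinase that binds Akt and is induced by Atf4 and Ddit3, was at 117, 133 and 91.7 CPM in Con and at 81.5, 48.7 and 76.7 CPM in PD. Chac1, an enzyme that breaks down glutathione, was at 10.8, 12.9 and 9.55 CPM in Con and at 5.23, 8.18 and 6.10 CPM in PD. In both genes every PD tumor was below every Con tumor, but PD replicate 2 was the lowest PD tumor for Trib3 and the highest for Chac1. The log2 fold change of Chac1 was -0.77 (SE 0.55, unadjusted p = 0.186, adjusted p = 1 by edgeR), and that of Trib3 was -0.72 (SE 0.79).

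Phgdh, the first enzyme of serine synthesis from glucose, was at 122, 127 and 144 CPM in Con and at 97.7, 103 and 83.3 CPM in PD. Psat1, the next enzyme of that pathway, was at 185, 180 and 163 CPM in Con and at 149, 134 and 134 CPM in PD. Asns, which makes asparagine, was at 177, 209 and 156 CPM in Con and at 154, 130 and 142 CPM in PD. The groups did not overlap for any of these genes, and the gap was narrowest for Asns. Psph, the last enzyme of serine synthesis, overlapped between the groups, with 61.9 to 80.7 CPM in Con and 51.1 to 71.1 CPM in PD.

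The SE of these genes was larger when Comb replicate 3 was part of the fit. For Phgdh the log2 fold change of PD against Con was -0.47 with an SE of 0.68 with all tumors, and -0.47 with an SE of 0.16 once Comb replicate 3 was left out (unadjusted p = 0.012, adjusted p = 0.393, range of the adjusted p over the alternatives 0.0782 to 1). Without that tumor 6 of the 33 genes had an unadjusted p under 0.05 for PD against Con (18.2%, against 10.7% of 13621 genes). They were Phgdh, Psat1, Asns, Trib3 and Ddit3, which were lower, and Calr, which was higher, and the adjusted p of Calr was 0.413. With the PD and Con tumors fitted alone, 7 of the 32 genes then tested had an unadjusted p under 0.05 (21.9%, against 12.7% of 12670 genes), and the adjusted p was 0.233 for Phgdh.

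Calr was at 1081, 927 and 905 CPM in Con and at 1423, 1072 and 1403 CPM in PD. PD replicate 2 lay just below the highest Con tumor, so the groups overlapped, and the log2 fold change was 0.42 (SE 0.30, unadjusted p = 0.186 by edgeR). A pair of other folding genes was among the 5 with the smallest unadjusted p in this comparison. They were Pdia3, a disulfide isomerase that works with calreticulin, with a log2 fold change of 0.26 (SE 0.24, unadjusted p = 0.302), and Hsp90b1, the ER member of the Hsp90 family, with 0.30 (SE 0.29, unadjusted p = 0.33). The adjusted p was 1 by edgeR for Calr, Pdia3 and Hsp90b1. Hsp90b1 was at 1059, 1155 and 990.0 CPM in Con and at 1534, 1067 and 1337 CPM in PD.

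By role, the median log2 fold change of PD against Con was -0.50 for the 5 stress output genes, -0.25 for the 8 amino acid and one-carbon genes and 0.08 for the 13 ER chaperone and folding genes, against 0.01 for all genes tested. PD replicate 2 differed from the other PD tumors in the chaperone and degradation genes. Its chaperone genes had a median 0.13 below the Con mean on the log2 scale, where PD replicates 1 and 3 were 0.27 and 0.06 above it. Herpud1 was at 75.8 CPM in PD replicate 2 and at 159 and 153 CPM in PD replicates 1 and 3. Fibroblast markers summed to 4121, 6792 and 5600 CPM in PD replicates 1 to 3 and to 2152, 2476 and 2647 CPM in Con, and macrophage markers to 962, 1980 and 1309 CPM in PD and 542 to 903 CPM in Con. T cell markers (7 of 8 listed genes found) summed to 38.1, 107 and 49.8 CPM in PD and to 22.0 to 33.3 CPM in Con. The part of these cell types in the lower stress output and synthesis genes was not tested.

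**Figure D2:**
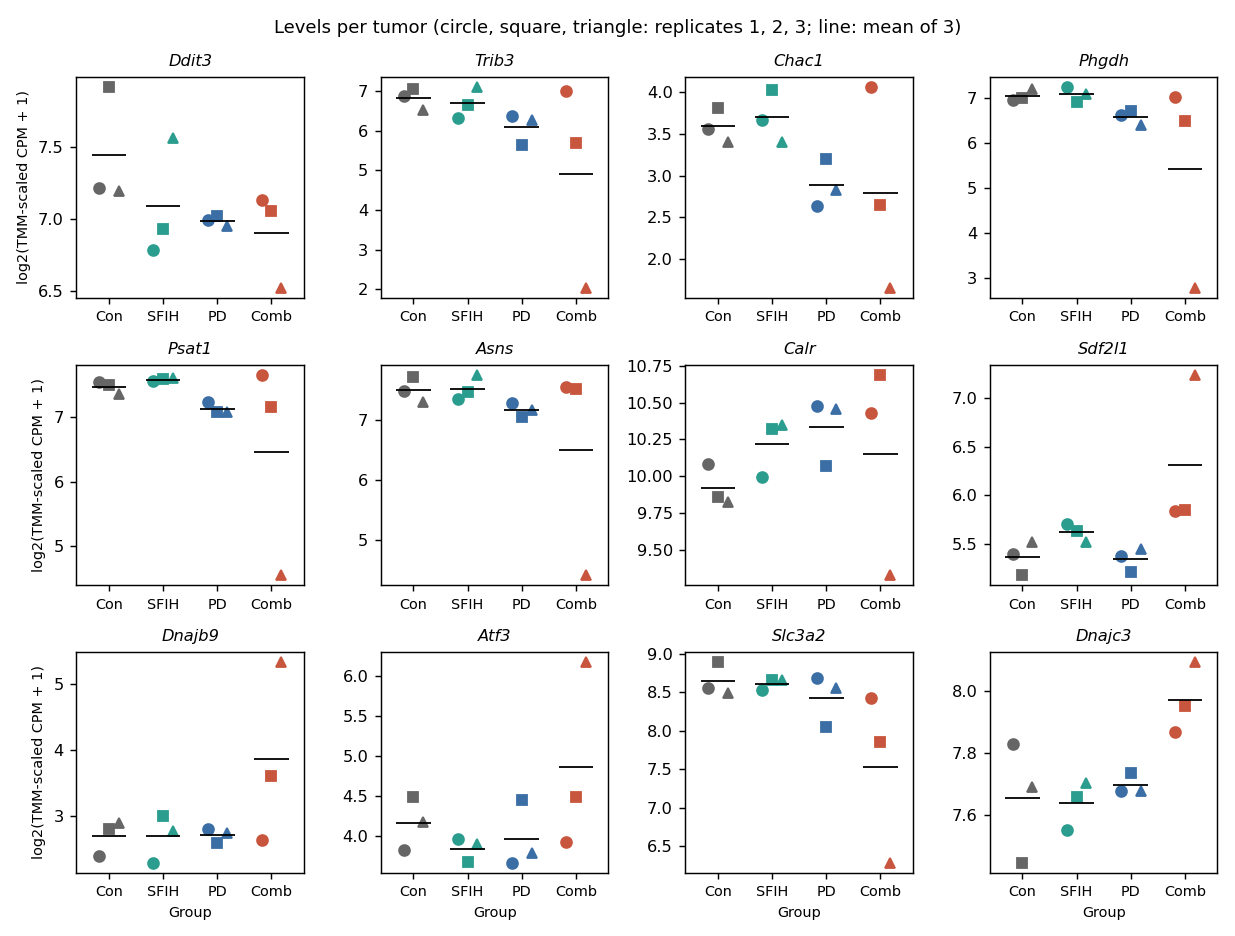
Level in log2(TMM-scaled CPM + 1) of 12 of the genes in each tumor, by group, with replicates 1, 2 and 3 as circle, square and triangle and the group mean of 3 as a line; each panel has its own vertical scale, which does not start at 0. The 3 PD points lie below the 3 Con points for Ddit3, Trib3, Chac1, Phgdh, Psat1 and Asns, and the triangle of Comb lies far from the other Comb points for most genes.

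The comparison of SFIH with Con asks what the plant fraction alone did. The members did not stand out from the rest of the genes. All SFIH tumors were above all Con tumors for 2 of the 33 genes (6.06%, against 8.55% of all genes), Psat1 and Sdf2l1, and below for 1 (3.03%, against 8.86% of all genes), Mthfd2. On CPM without TMM scaling Psat1 and Sdf2l1 overlapped with Con, Calr alone was above (3.03%, against 7.55% of all genes), and Mthfd2 was still below. The median log2 fold change of the 33 genes was 0.02, and that of all genes was 0.02.

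Mthfd2, the mitochondrial one-carbon enzyme, was at 391, 431 and 339 CPM in Con and at 251, 311 and 326 CPM in SFIH. Mthfd2 was the only one of the 33 genes with an unadjusted p under 0.05 for SFIH against Con once Comb replicate 3 was left out (3.03%, against 7.49% of 13621 genes). Its log2 fold change was -0.39 (SE 0.62) with all tumors and -0.39 (SE 0.16, unadjusted p = 0.0369, adjusted p = 0.623 by edgeR) without Comb replicate 3, and over the alternatives its adjusted p ran from 0.232 to 1. Sdf2l1, a cofactor of BiP in protein folding, was at 41.1, 35.1 and 44.8 CPM in Con and at 51.0, 48.5 and 44.9 CPM in SFIH. The lowest SFIH tumor was thus barely above the highest Con tumor, and the log2 fold change was 0.26 (SE 0.33, unadjusted p = 0.457).

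Ddit3 had the smallest p of the 33 for SFIH against Con, at 109, 121 and 188 CPM in SFIH. Its log2 fold change was -0.35 (SE 0.27, unadjusted p = 0.217, adjusted p = 1 by edgeR). SFIH replicate 3 lay within the Con range, so the groups overlapped. Slc7a5, the light chain of the large neutral amino acid transporter, was at 19.5, 33.5 and 19.2 CPM in Con and at 47.6, 27.3 and 32.3 CPM in SFIH (log2 fold change 0.57, SE 0.58, unadjusted p = 0.343). The other genes with the smallest p were Calr with 0.30 (SE 0.30, unadjusted p = 0.33) and Manf, a secreted ER stress protein, with 0.22 (SE 0.24, unadjusted p = 0.385). The adjusted p of Sdf2l1, Slc7a5, Calr and Manf was 1 by edgeR.

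The comparison of Comb with Con asks what the 2 agents did together. The BiP cofactor Sdf2l1 and the J-domain protein Dnajc3 had higher levels in all 3 Comb tumors than in any Con tumor, and neither passed the adjusted threshold with edgeR. DESeq2 on all 12 tumors called Sdf2l1 and Dnajb9. Levels in Comb replicate 3 were far from those of the other Comb tumors for most of the genes named here. The Con tumors are the same ones that entered the comparisons above. All Comb tumors were above all Con tumors for 2 of the 33 genes (6.06%, against 11.7% of all genes), Sdf2l1 and Dnajc3, and below for 2 (6.06%, against 13% of all genes), Ddit3 and Slc3a2. On CPM without TMM scaling, 0 of the 33 were above (7.6% of all genes) and 6 below (18.2%, against 22.2% of all genes).

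Sdf2l1 was at 56.2, 56.5 and 151 CPM in Comb replicates 1 to 3, against 35.1 to 44.8 CPM in Con. Comb replicates 1 and 2 agreed closely and were above every tumor of the other groups, and Comb replicate 3 was far above them. Its log2 fold change was 1.12 (SE 0.34, unadjusted p = 0.00639, adjusted p = 0.0802 by edgeR). Without Comb replicate 3 it was 0.48 (SE 0.15, unadjusted p = 0.0064, adjusted p = 0.129). With DESeq2 the adjusted p of Sdf2l1 was 0.0192 with all tumors, 0.0498 without Comb replicate 3 and 0.177 on the compared groups alone. Over the alternatives the log2 fold change of Sdf2l1 ran from 0.48 to 1.36 and its adjusted p from 0.0131 to 0.353.

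Dnajb9, an Xbp1-dependent J-domain partner of BiP, was at 4.30, 6.02 and 6.43 CPM in Con and at 5.25, 11.2 and 39.1 CPM in Comb. Comb replicate 1 lay within the Con range, so the groups overlapped. For Dnajb9 the log2 fold change was 1.72 (SE 0.59, unadjusted p = 0.0137, adjusted p = 0.109 by edgeR), and without Comb replicate 3 it was 0.55 (SE 0.37, unadjusted p = 0.162). With DESeq2 the adjusted p of Dnajb9 was 0.0309 with all tumors, and over the alternatives it ran from 0.00937 to 0.484.

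Dnajc3 (p58IPK), a J-domain protein that restrains Eif2ak3, was at 226, 174 and 206 CPM in Con and at 233, 247 and 272 CPM in Comb. The lowest Comb tumor was just above the highest Con tumor, and here Comb replicate 3 was not far from its group. The log2 fold change of Dnajc3 was 0.31 (SE 0.15, unadjusted p = 0.066, adjusted p = 0.227 by edgeR), and without Comb replicate 3 it was 0.25 (SE 0.13).

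Calr was at 1375, 1652 and 641 CPM in Comb. Replicates 1 and 2 were above every Con tumor and Comb replicate 3 below every one. For Calr the log2 fold change was 0.33 (SE 0.30) with all tumors and 0.64 (SE 0.17, unadjusted p = 0.00268, adjusted p = 0.106 by edgeR) without Comb replicate 3. DESeq2 without that tumor gave an adjusted p of 0.0143, and over the alternatives the adjusted p of Calr ran from 0.0143 to 0.928. Pdia3 had a log2 fold change of 0.07 (SE 0.24) with all tumors and 0.32 (SE 0.14, unadjusted p = 0.0357) without Comb replicate 3.

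Atf3, an immediate stress factor also made by many non-tumor cells, was at 13.1, 21.4 and 17.0 CPM in Con and at 14.1, 21.4 and 71.5 CPM in Comb. Only Comb replicate 3 was outside the Con range by more than 0.1 CPM. Its log2 fold change was 1.05 (SE 0.51, unadjusted p = 0.0613, adjusted p = 0.218 by edgeR) and was 0.05 (SE 0.30) without that tumor.

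Slc3a2, the heavy chain that pairs with Slc7a5, was at 376, 474 and 359 CPM in Con and at 343, 231 and 77.0 CPM in Comb. Its log2 fold change was -0.89 (SE 0.41, unadjusted p = 0.0511, adjusted p = 0.2 by edgeR), and it was -0.49 (SE 0.22, unadjusted p = 0.0446, adjusted p = 0.253) without Comb replicate 3. Ddit3 was at 140, 132 and 91.1 CPM in Comb, all below the lowest Con tumor. Its log2 fold change was -0.56 (SE 0.27, unadjusted p = 0.0628, adjusted p = 0.221) with all tumors and -0.39 (SE 0.25) without Comb replicate 3.

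In Comb replicate 3 the amino acid and one-carbon genes were low as a group. All 8 were below every Con tumor (100%, against 47.9% of all genes). Their median was 2.79 below the Con mean on the log2 scale, against a median 0.12 below it for all genes. Phgdh was at 5.89 CPM there and at 129 and 87.9 CPM in Comb replicates 1 and 2, and Trib3 was at 3.13 CPM against 126 and 50.8 CPM. Mthfd2 was at 27.2 CPM against 370 and 280 CPM, and Asns at 20.3 CPM against 185 and 181 CPM. Atf4, the factor upstream of these genes, was at 346 CPM in this tumor and at 1067 and 990.1 CPM in the other Comb tumors.

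Over the 33 genes, 22 were below every Con tumor in Comb replicate 3 (66.7%, against 47.9% of all genes) and 9 above (27.3%, against 41.4%). Beside Sdf2l1, Dnajb9 and Atf3, the high genes were led by Sel1l, the adaptor of the Hrd1 ubiquitin ligase, at 164 CPM against 69.0 and 69.6 CPM in the other Comb tumors. Xbp1 was at 142 CPM against 82.8 and 93.7 CPM. Macrophage, neutrophil, T cell, fibroblast, skeletal muscle, adipocyte, skin and epithelial markers were highest in this same tumor. So were erythroid markers (2433 CPM, at most 1536 elsewhere) and endothelial markers (154 CPM, at most 146 elsewhere). B and plasma cell markers were highest in Comb replicate 2. The part of these cell types in the low synthesis genes of Comb replicate 3 and its high Sdf2l1, Dnajb9, Atf3 and Sel1l was not tested.

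In Comb replicate 2 the amino acid and one-carbon genes were low at a smaller size. Its macrophage markers summed to 4002 CPM and its fibroblast markers to 11718 CPM, and its 8 amino acid and one-carbon genes had a median 0.40 below the Con mean on the log2 scale, with 6 of 8 below every Con tumor (75%, against 37.9% of all genes). In Comb replicate 1 the macrophage sum was 1059 CPM and the median of these genes was 0.01 below the Con mean. The medians of PD replicates 2 and 3, 0.37 and 0.36 below the Con mean, were near that of Comb replicate 2, with macrophage sums of 1980 and 1309 CPM. In PD replicate 1 the macrophage sum was 962 CPM and the median 0.04 below the Con mean. Shmt2, the mitochondrial serine hydroxymethyltransferase, was at 163 CPM in Comb replicate 1, 97.0 CPM in Comb replicate 2 and 26.1 CPM in Comb replicate 3, against 159 to 183 CPM in Con. B and plasma cell markers (8 of 8 genes found) summed to 94.8 CPM in Comb replicate 2 and 48.2 CPM in Comb replicate 3, the tumors with the highest Dnajb9, and to 3.64 to 16.5 CPM in the other 10. The part of these cell types in these medians and in Dnajb9 was not tested.

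**Figure D3:**
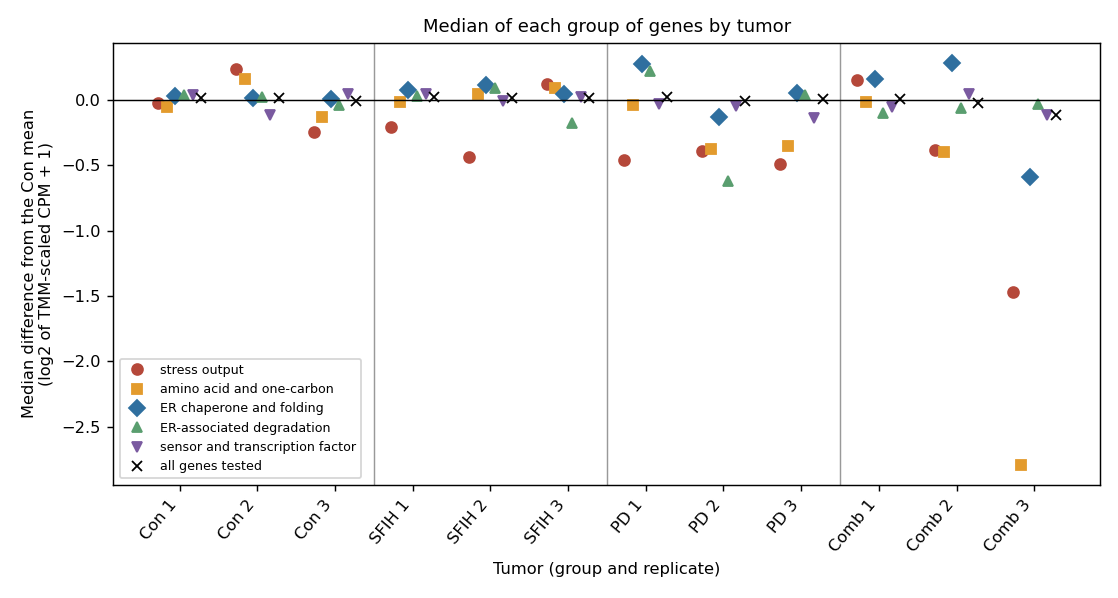
Median difference from the Con mean, in log2(TMM-scaled CPM + 1), of the genes of each role and of all genes tested, for each of the 12 tumors. The stress output genes are below 0 in all 3 PD tumors, and the amino acid and one-carbon genes reach 2.79 below the Con mean in Comb replicate 3.

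Calls for Comb against Con, among the 33 genes and in the whole table, depended on which Comb tumor was left out. Without Comb replicate 2 the edgeR test called 0 of the 33 genes and 0 of all genes. Without Comb replicate 1 it called 7 of the 33 genes (21.2%, against 28.5% of 13856 genes), 3 higher and 4 lower. The higher genes were Dnajb9 (log2 fold change 2.17, adjusted p = 0.00937), Sdf2l1 (1.36, adjusted p = 0.0131) and Atf3 (1.44, adjusted p = 0.0337, range over the alternatives 0.0337 to 0.949), and the lower genes were Chac1, Slc3a2, Shmt2 and Hyou1. Without Comb replicate 3 it called 0 of the 33 genes (5 of 13621 genes, 0.0367%), with 4 at an unadjusted p under 0.05 (12.1%, against 18.8% of 13621 genes), and DESeq2 called Calr and Sdf2l1 (5.43% of 13621 genes were called). With 2 Comb tumors their spread was pooled with that of the other groups.

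**Figure D4:**
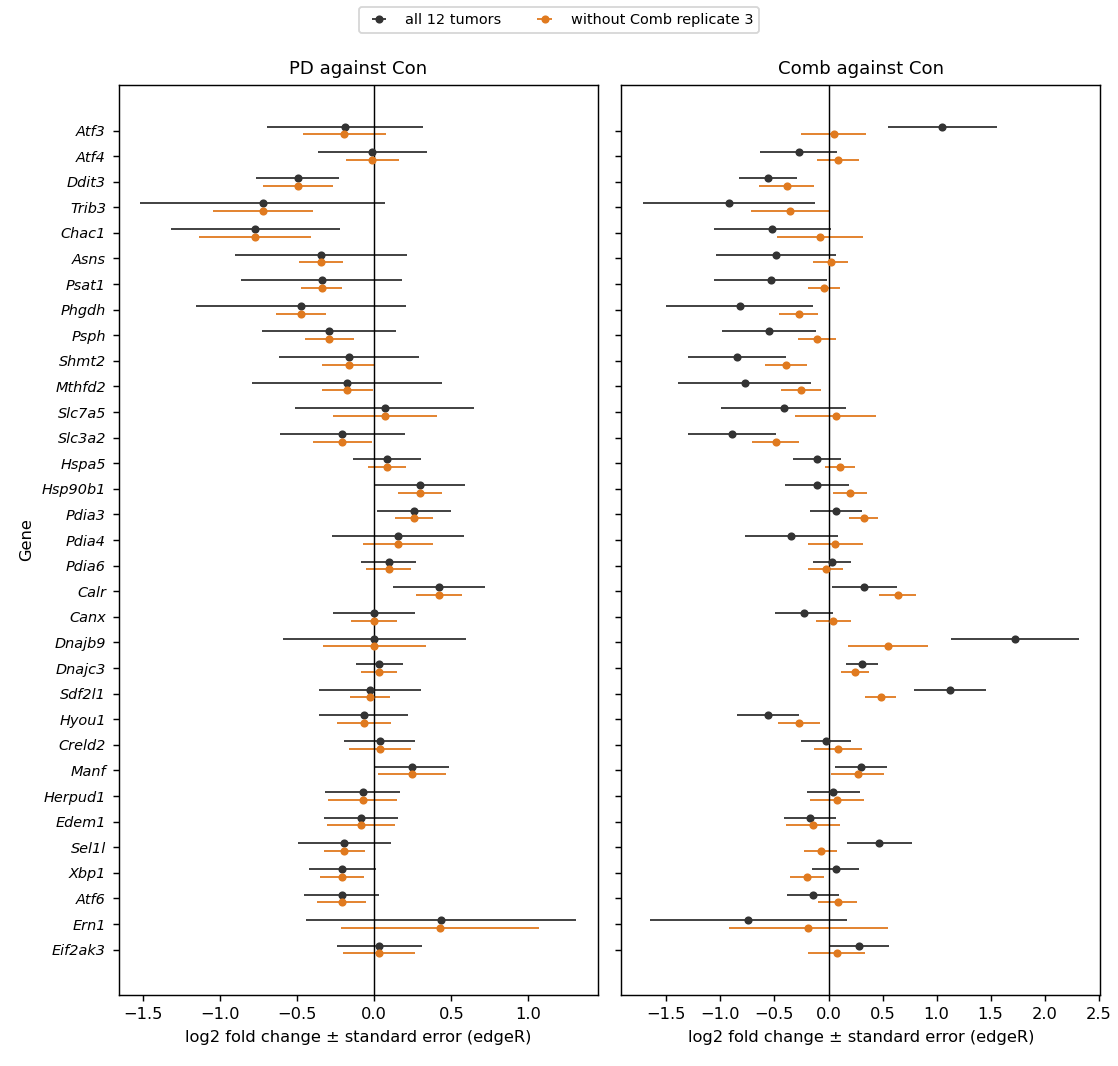
Log2 fold change with SE bars of the 33 genes for PD against Con (left) and Comb against Con (right), with all 12 tumors (dark) and without Comb replicate 3 (orange), from edgeR; the 2 panels share the Con tumors. Leaving out that tumor shortened the bars of most genes in both panels and moved Atf3, Dnajb9, Sdf2l1 and the amino acid and one-carbon genes of the right panel toward 0.

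Comb was also compared with each single treatment. Against PD, 3 of the 33 genes had an unadjusted p under 0.05 (9.09%, against 18% of all genes), Sdf2l1, Dnajb9 and Atf3, and 2 had all Comb tumors above all PD tumors (6.06%, against 6.16% of all genes), Sdf2l1 and Dnajc3, and 0 were below (8.1% of all genes). On CPM without TMM scaling Sdf2l1 alone was above (3.03%, against 4.25% of all genes). The log2 fold change of Sdf2l1 was 1.15 (SE 0.34, unadjusted p = 0.0056, adjusted p = 0.243 by edgeR), and 0.51 (SE 0.15, unadjusted p = 0.00469, adjusted p = 0.532) without Comb replicate 3. Dnajb9 had a log2 fold change of 1.73 (SE 0.59, unadjusted p = 0.0139, adjusted p = 0.243 by edgeR) and Atf3 of 1.24 (SE 0.51, unadjusted p = 0.0326, adjusted p = 0.256), which were 0.55 (SE 0.37) and 0.24 (SE 0.30) without that tumor. For Sel1l it was 0.67 (SE 0.30, unadjusted p = 0.0502, adjusted p = 0.277), and 0.12 (SE 0.15) without that tumor. For Dnajc3 it was 0.28 (SE 0.15, unadjusted p = 0.0954, adjusted p = 0.334), and 0.21 (SE 0.13) without that tumor. Without Comb replicate 3, 2 of the 33 genes, Sdf2l1 and Asns, had an unadjusted p under 0.05 (6.06%, against 9.02% of 13621 genes). Asns had a log2 fold change of 0.37 (SE 0.16, unadjusted p = 0.0414, adjusted p = 0.547) without Comb replicate 3, and of -0.14 (SE 0.56) with all tumors.

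Against SFIH, all Comb tumors were above all SFIH tumors for Sdf2l1 and Dnajc3 (2 genes, 6.06%, against 7.65% of all genes) and below for Shmt2 and Slc3a2 (2 genes, 6.06%, against 8.56% of all genes). On CPM without TMM scaling neither Sdf2l1 nor Dnajc3 was above (4.65% of all genes were), and 4 genes, Shmt2, Slc3a2, Phgdh and Psph, were below (12.1%, against 14.9% of all genes). The unadjusted p was under 0.05 for 4 of the 33 genes (12.1%, against 19% of all genes). They were Dnajb9 (log2 fold change 1.72, SE 0.59, unadjusted p = 0.0138), Atf3 (1.42, SE 0.51, unadjusted p = 0.0179), Sdf2l1 (0.87, SE 0.33, unadjusted p = 0.0244) and Dnajc3 (0.34, SE 0.15, unadjusted p = 0.0495). Their adjusted p by edgeR was 0.161, 0.178, 0.196 and 0.262 in the same order. Slc3a2 had a log2 fold change of -0.85 (SE 0.41, unadjusted p = 0.0614, adjusted p = 0.287), and of -0.45 (SE 0.22) without Comb replicate 3. Without that tumor 1 of the 33 genes, Shmt2, which was lower, had an unadjusted p under 0.05 (3.03%, against 10.8% of 13621 genes). For the 4 higher genes the values without that tumor were 0.54 (SE 0.37) for Dnajb9, 0.41 (SE 0.30) for Atf3, 0.23 (SE 0.15) for Sdf2l1 and 0.27 (SE 0.13) for Dnajc3.

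The interaction term asks whether the effect of both agents differed from the sum of the single effects on the log2 scale. Among the 5 genes with the smallest p it was 1.72 for Dnajb9 (SE 0.83, unadjusted p = 0.0612), 1.61 for Atf3 (SE 0.72, unadjusted p = 0.046) and 0.89 for Sdf2l1 (SE 0.47, unadjusted p = 0.0835). For Sel1l it was 0.79 (SE 0.43, unadjusted p = 0.0906) and for Dnajc3 0.30 (SE 0.22, unadjusted p = 0.187), and the adjusted p of all 5 was 0.894 by edgeR. Without Comb replicate 3 the interaction was 0.54 (SE 0.50) for Dnajb9, 0.60 (SE 0.40) for Atf3, 0.25 (SE 0.20) for Sdf2l1, 0.25 (SE 0.20) for Sel1l and 0.24 (SE 0.18) for Dnajc3, each with an adjusted p of 1. Atf3 was the only one of the 33 genes with an unadjusted p under 0.05 (3.03%, against 2.55% of all genes), and without Comb replicate 3 there was none (1.55% of all genes).

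None of the 4 sensors and transcription factors had groups without overlap in any comparison. Eif2ak3 was between 7.28 and 12.3 CPM in the Con, SFIH and PD tumors and at 15.3 CPM in Comb replicate 3. Atf6 was between 28.5 and 45.0 CPM in all tumors but Comb replicate 3, which had 21.8 CPM. Ern1 was counted 6 to 18 times in the other 11 tumors and 0 times in Comb replicate 3, a count that allows up to 3 counts. Sequence reads were counted at the 3′ end of messages, so splicing of Xbp1 was not measured. Its summed level was 78.5 to 111 CPM outside Comb replicate 3.

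For PD against Con the log2 fold changes of the 7 chaperones with an ERSE reached from -0.00 to 0.42, with SE between 0.15 and 0.30. The 2 highest were those of Calr and Hsp90b1, and those of Hspa5, Dnajc3 and Creld2 fell below 0 without TMM scaling. Hspa5 itself was at 2142, 2113 and 2031 CPM in Con, at 2559, 1917 and 2177 CPM in PD and at 2344, 2158 and 1328 CPM in Comb. Its groups overlapped in each comparison. The 2 folding genes with the smallest p for Comb against Con, Sdf2l1 and Dnajb9, had none of these motifs in their windows. Hyou1, an ER Hsp110 chaperone, had a log2 fold change of -0.56 (SE 0.29) for Comb against Con and of -0.27 (SE 0.20) without Comb replicate 3. For Pdia4, a disulfide isomerase, these values were -0.34 (SE 0.43) and 0.06 (SE 0.26).

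Further genes of the same pathways were counted in the same way. Of 39 other ISR genes listed 38 were tested, and of 45 other UPR genes 44 were tested. For PD against Con, 8 of the 38 ISR genes had all PD tumors below all Con tumors (21.1%, against 9.36% of all genes) and 1 above (2.63%, against 9.42%), and their median log2 fold change was -0.23. Once Comb replicate 3 was left out, 4 of the 38 had an unadjusted p under 0.05 for PD against Con, all lower (10.5%, against 10.7% of all genes in both directions). For Comb against Con 13 of the 38 were below (34.2%, against 13% of all genes) and 0 above (11.7% of all genes). Without Comb replicate 3, 7 of the 38 had an unadjusted p under 0.05 for Comb against Con, all lower (18.4%, against 18.8% of all genes in both directions). For SFIH against Con 4 were below (10.5%, against 8.86% of all genes) and 0 above (8.55% of all genes).

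The named ISR gene with the smallest p for Comb against Con was Ddit4 (REDD1), an inhibitor of mTORC1, with a log2 fold change of -2.41 (SE 0.46, adjusted p = 0.0665 by edgeR), and of -2.01 (SE 0.30, adjusted p = 0.0547) without Comb replicate 3. All tumors of SFIH, PD and Comb were below all Con tumors for Ddit4, and its log2 fold change was -0.94 (SE 0.44) for SFIH and -0.94 (SE 0.44) for PD. For PD against Con the smallest p with all tumors in the fit belonged to Cebpb, a partner of Ddit3, with -0.52 (unadjusted p = 0.0484, and 0.0283 without Comb replicate 3). Without Comb replicate 3 Ddit4 had a smaller p (unadjusted p = 0.00303, adjusted p = 0.373), with a log2 fold change of -0.94 (SE 0.25). Of the 44 other UPR genes, 5 had all Comb tumors above all Con tumors and 5 below (11.4% each, against 11.7% and 13% of all genes). Among them Sec62, a translocon protein that also serves ER recovery after stress, had a log2 fold change of 0.92 (SE 0.21, adjusted p = 0.0665), and of 0.72 (SE 0.16, adjusted p = 0.0896) without Comb replicate 3. Ero1l, the ER oxidase, had -1.86 (SE 0.50, adjusted p = 0.0688) and -1.50 (SE 0.44, adjusted p = 0.122) in the same order. In the edgeR fit without Comb replicate 3, 6 of the 44 UPR genes had an unadjusted p under 0.05 for SFIH against Con. Of these 4 were higher and 2 lower (13.6%, against 7.49% of all genes in both directions). For PD against Con 4 of the 44 passed (9.09%, against 10.7%) and for Comb against Con 8 (18.2%, against 18.8%). The lists of other ISR and UPR genes were not chosen independently of earlier results of these data.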

How the data were processed

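Total RNA of 12 tumors was made into QuantSeq 3′ mRNA-Seq libraries, read as single ends on a NextSeq 500. The authors deposited raw read counts per gene symbol, 1 column per tumor. The aligner, counting tool, build and annotation are not given in the sources used here. The study's methods mention no molecular identifiers, so counting error is taken as a lower limit of the error. Columns were assigned to groups from their names and the labels, and 46 rows that repeat the symbol of an earlier row were kept as separate entries.

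Counts were analysed in R 4.3.3 with edgeR 4.0.16 (filterByExpr, TMM, quasi-likelihood test, two-sided). The 12 tumors were fitted together with their 4 groups as the only factor. P-values were adjusted by Benjamini-Hochberg over all 13464 genes, with a threshold of 0.05. Levels are TMM-scaled CPM, with a pseudocount of 1 on the log2 scale. DESeq2 1.42.0, other scalings, no filter, a replicate block, the compared groups alone and leaving out each tumor were the alternatives. Both tools were tested on simulated data for PD against Con, with 200 genes changed. At a 2-fold change edgeR called 0 of the 200 and DESeq2 11, with 0 and 5 unchanged genes called. At a 4-fold change edgeR called 134 and DESeq2 154, with 5 and 24 unchanged genes called. A gene with no call here may therefore still have changed 2-fold.

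Every one of the 33 genes is accounted for by role. Full statistics are given for the 5 genes with the smallest unadjusted p in each comparison, and up to 2 other pathway genes per direction may be named. Other genes were chosen after their values were seen. The genes and lists were chosen with earlier results of these data known. Promoters came from RefSeq (GRCm38.p6) and were searched with Python 3.11.15, and the core of the C/EBP-ATF element was added after seeing the data.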

Additional observations from a re-analysis of the deposited data

How the results depend on the processing

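For the genes with the 5 smallest p in each comparison, for 9 further values given above and for the counts without overlap, 787 values under the alternatives kept their direction and side of the threshold, 18 passed it only there, 6 counts moved and 8 changed sign. The sign changes were those of Pdia3 and Pdia4 for Comb against Con and of Asns for Comb against PD. Pdia3 was -0.15 without TMM and -0.083 to 0.32 leaving out 1 tumor at a time. Pdia4 ran from -0.64 to 0.062 and Asns from -0.47 to 0.37 leaving out 1 tumor at a time, the highest of both without Comb replicate 3, where DESeq2 gave 0.080 and 0.38. Over all 33 genes and 6 comparisons, 95 of 198 fold changes had the same sign in every fit and 103 did not. With edgeR 0 of the 33 genes were called in all comparisons. DESeq2 called 2 of the 33 for Comb against Con (6.06%, against 14.8% of all genes). It called 1 for Comb against PD (3.03%, against 3.1%) and 1 for Comb against SFIH (3.03%, against 8.59%). DESeq2 without Comb replicate 3 called 2 for Comb against Con (6.06%, against 5.43%). Leaving out 1 tumor at a time, edgeR called 0 to 7 of the 33 for Comb against Con. It called 0 to 3 for Comb against PD and 0 to 6 for Comb against SFIH. The highest of each came without Comb replicate 1, at 21.2%, 9.09% and 18.2% of the 33 in the same order. Of all genes 28.5%, 15.2% and 22.5% were called there.

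Over all genes edgeR called 0 in each comparison, and leaving out 1 tumor at a time gave 0 to 3943 for Comb against Con (5 without Comb replicate 3), 0 to 2100 for Comb against PD and 0 to 3118 for Comb against SFIH. DESeq2 called 4 genes for SFIH against Con, 6 for PD against Con, 1998 for Comb against Con, 417 for Comb against PD, 1157 for Comb against SFIH and 1 for the interaction. DESeq2 without Comb replicate 3 called 65, 68, 740, 30 and 94 in the same order, and 0 for the interaction. DESeq2 on the compared groups alone, chosen after seeing the data, called 128, 278, 719, 20 and 411. The cause of the gap between the tools was not tested.

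Without TMM scaling the median of all genes for Comb against Con moved from -0.03 to -0.29 on the log2 scale, and 7 of the 33 genes had a fold change above 0 in place of 12. The signs of Pdia3, Pdia6, Herpud1, Xbp1 and Eif2ak3 for Comb against Con, and of Slc7a5, Hspa5, Dnajc3, Creld2 and Eif2ak3 for PD against Con, turned with it. Counts without overlap on CPM without TMM, with the percent of all genes in brackets, were 0 higher (7.6) and 6 lower (22.2) for Comb against Con, 0 higher (4.65) and 4 lower (14.9) for Comb against SFIH, 1 higher (4.25) for Comb against PD, 1 higher (7.55) for SFIH against Con and 8 lower (14.8) for PD against Con.

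A fit with the replicate number as a block called 0 of the 33 genes and 0 of all genes in every comparison. Same-numbered tumors correlated from -0.288 to 0.409, with 6 of 18 pairs over 0.1 and 2 of 12 tumors closest to their own number, so the numbers gave no pairing.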
